A study of Mus musculus with 18 samples.

Results

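The cytokine axis that signals through *Stat3* was followed in mouse colon by 8 genes taken by name from a count table of 47729 genes. They were the transcription factor gene *Stat3*, its feedback inhibitor *Socs3*, the kinase gene *Jak1*, and the receptor chain genes *Il6ra*, *Il6st*, *Osmr*, *Il22ra1* and *Il10rb*. They were listed by name with earlier results of these data known, and all 8 passed the filter on low counts. Bulk RNA-seq was run on colon tissue from WT and *Cldn2* knockout (*Cldn2*KO) mice. *Cldn2* encodes claudin-2, a tight junction protein that forms pores for cations and water. Both genotypes were studied without treatment (control), in recovery from a colitis that dextran sulfate sodium (DSS) had induced by injuring the epithelium, and after the carcinogen azoxymethane combined with DSS (AOM/DSS). For AOM/DSS the labels give 1 dose of AOM at 10 mg/kg and 3 cycles of DSS at 2.5%. This gave 6 groups of 3 libraries. Mice of both genotypes were of the C57BL/6 background, and the labels give neither their ages nor a tissue to which the knockout is limited. The labels do not say that replicates came from separate mice, so the spread between libraries may be in part technical.

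As background, cytokines of the interleukin-6 family bind a private receptor chain (*Il6ra* for interleukin-6, *Osmr* for oncostatin M) that pairs with the shared chain gp130, the product of *Il6st*. Interleukin-22 binds *Il22ra1* on epithelial cells together with *Il10rb*, which interleukin-10 also uses. In each case Jak kinases bound to the receptor, Jak1 among them, phosphorylate Stat3, which enters the nucleus and switches on target genes. *Socs3* is one of those targets, and its protein binds gp130 and the kinase and ends the signal. In the colon the axis is known for epithelial repair, for antimicrobial lectins such as *Reg3b* and *Reg3g*, and for growth of colitis-associated tumours. The libraries measure transcripts, while Stat3 activity depends on phosphorylation, which RNA-seq does not read.

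The inhibitor varied most in these colons: the ratio of the highest to the lowest of 18 libraries was 23.9 for *Socs3*, 7.59 for *Il22ra1*, 6.77 for *Osmr* and between 1.35 and 3.21 for the other 5 genes. Without WT AOM/DSS replicate 3 the ratio was 10.7 for *Socs3* and 3.22 for *Osmr*, and without WT recovery replicate 2 it was 3.99 for *Il22ra1*. *Socs3* was 4.71-fold lower in *Cldn2*KO than in WT controls and 3.81-fold higher in *Cldn2*KO recovery than in *Cldn2*KO controls. In WT mice, *Stat3*, *Il22ra1* and *Il6st* were 1.59-fold, 2.55-fold and 1.95-fold lower in recovery than in controls. *Il6st* was also 1.75-fold lower in *Cldn2*KO recovery. All recovery libraries lacked *Hoxb13*, which marks the distal colon, so recovery and colon position cannot be fully told apart. After AOM/DSS in WT mice, *Il10rb* was 1.45-fold lower, and *Socs3* was 2.63-fold higher with 1 library setting the size of that difference. *Jak1* passed the test in no comparison.

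Libraries held 17.6 to 27.4 M counted reads (median 19.6 M). *Cldn2* had 1 to 12 reads in each *Cldn2*KO library and 680 to 12389 reads in each WT library. Epithelial markers were present in every library, with *Epcam* at 1815 to 2434 CPM (counts per M reads, here scaled with TMM factors). Libraries also differed in traits that in part follow the groups, so that recovery cannot be fully told apart from these traits. *Hoxb13*, which marks the distal colon, was at 0.502 CPM or less in all recovery libraries and at 0.327 CPM in WT control replicate 2, and at 198 CPM or more in the other 11 libraries, although the study describes the recovery samples as distal colon. *Xist*, expressed from the inactive X chromosome of female cells, passed 100 CPM in 6 libraries: replicates 2 and 3 of WT recovery, of *Cldn2*KO recovery and of *Cldn2*KO AOM/DSS. No control or WT AOM/DSS library was among them, although the study's methods give the mice as matched for sex. WT AOM/DSS replicate 3 had the highest level of all 18 libraries in 31 of the 64 other pathway genes with reads.

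Levels can be compared between genes only per length, and they are given here as reads per kilobase and per M reads (RPKM), from the gene lengths in the table. Over the 18 libraries the median was 20.01 RPKM for *Jak1*, 15.2 for *Il10rb*, 14.8 for *Il22ra1*, 11.9 for *Stat3* and 9.91 for *Socs3*. The shared chain *Il6st* had a median of 4.99 RPKM. The private chains *Il6ra* and *Osmr* were scarce, with medians of 0.527 and 0.546 RPKM. Transcripts of the interleukin-22 receptor chains were thus more abundant per length than those of the interleukin-6 and oncostatin M receptor chains. *Il6ra* had 34 to 185 reads in a library and *Osmr* 75 to 641, against 1588 to 4752 for *Jak1*. The levels in a colon sample mix cell types, and fewer cells of a type and less RNA per cell cannot be told apart.

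**Figure D1:**
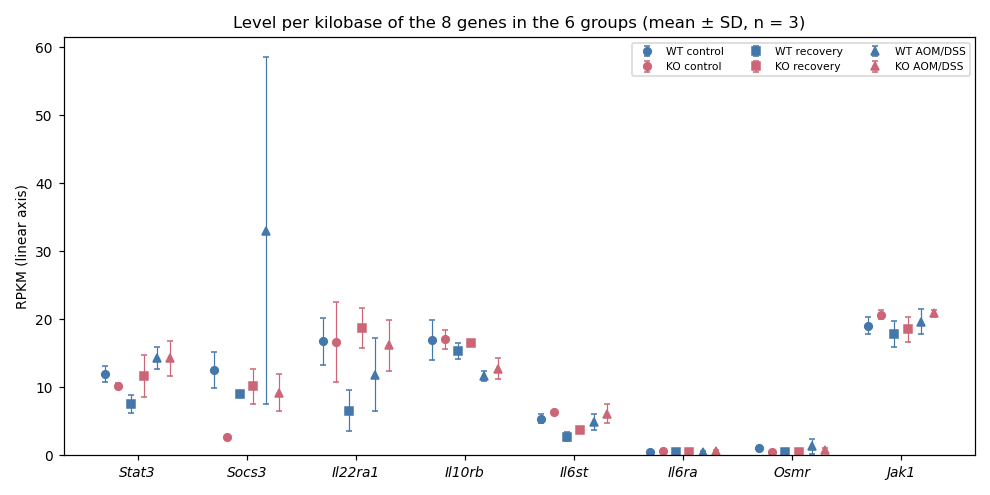
Mean level of each of the 8 genes in RPKM (linear axis) in the 6 groups, with whiskers for the SD over 3 libraries; circles are controls, squares recovery, triangles AOM/DSS, blue WT and red Cldn2KO. *Jak1* is highest in most groups and *Il6ra* and *Osmr* lie near the axis, while the whisker of *Socs3* in WT AOM/DSS (33.0 ± 25.5 RPKM) is the widest.

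A gene was called at an adjusted p under 0.05 in edgeR's quasi-likelihood test over 16937 genes. Between genotypes, 1 of the 8 genes was called in controls, where 1.17% of all genes tested were called, 0 of 8 in recovery (0.974% of all genes) and 0 of 8 after AOM/DSS (0.0059% of all genes). Between recovery and control, 3 of 8 were called in WT (22.2% of all genes) and 2 of 8 in *Cldn2*KO (19.4%). Between AOM/DSS and control, 2 of 8 were called in WT (10.4%) and 0 of 8 in *Cldn2*KO (0.195%). The interaction contrast, which asks whether the response differs between genotypes, called 0 of 8 for recovery (0.13% of all genes) and 0 of 8 for AOM/DSS (0.0118%). Where edgeR called 0 of 8, an unadjusted p under 0.05 was reached by 2 of 8 between genotypes in recovery (19.9% of all genes), 1 of 8 between genotypes after AOM/DSS (5.6%), 3 of 8 in *Cldn2*KO AOM/DSS (15.2%), 3 of 8 for the interaction with recovery (18.5%) and 0 of 8 for that with AOM/DSS (8.44%). DESeq2 called 2, 0, 1, 1 and 0 of 8 in these 5 contrasts, and 9.7%, 0.00985%, 3.43%, 6.37% and 0.435% of all genes to which it gave an adjusted p. The comparisons of recovery and of AOM/DSS within a genotype share that genotype's 3 control libraries.

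The 3 libraries of a group lay wholly above or below the 3 of the other for 5 of 8 genes between genotypes in controls (22.3% of all genes), 1 of 8 in recovery (23.9%) and 0 of 8 after AOM/DSS (11.3%). Between recovery and control this was so for 5 of 8 in WT (37.7%) and 3 of 8 in *Cldn2*KO (40.3%), and between AOM/DSS and control for 1 of 8 in WT (32.2%) and 4 of 8 in *Cldn2*KO (29.1%).

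In WT recovery all 8 genes had a log2 fold change below 0 against WT controls, with a median of -0.58 where the median of all genes tested was -0.04. WT recovery replicate 2 was the lowest of all 18 libraries in 5 of the 8 genes, and without it the median was -0.51 with 8 of 8 below 0. The 10 smooth muscle and 8 macrophage markers had medians of -1.83 and -1.99 in the same comparison, with 6 and 7 of them called lower. Their part in the medians was not tested. In *Cldn2*KO recovery 3 of 8 were above 0, with a median of -0.09, where all genes had a median of 0.00. Against WT recovery all 8 were above 0 in *Cldn2*KO recovery, with a median of 0.24. These values depended on single libraries: without *Cldn2*KO recovery replicate 2 the median was 0.14 with 3 of 8 below 0, and without WT recovery replicate 2 it was 0.13 with 1 of 8 below 0, and 1 of 8 was also below 0 without WT recovery replicate 1. After AOM/DSS the medians were -0.04 in WT and -0.01 in *Cldn2*KO, and in the alternatives they lay between -0.16 and 0.15, on either side of 0.

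**Figure D2:**
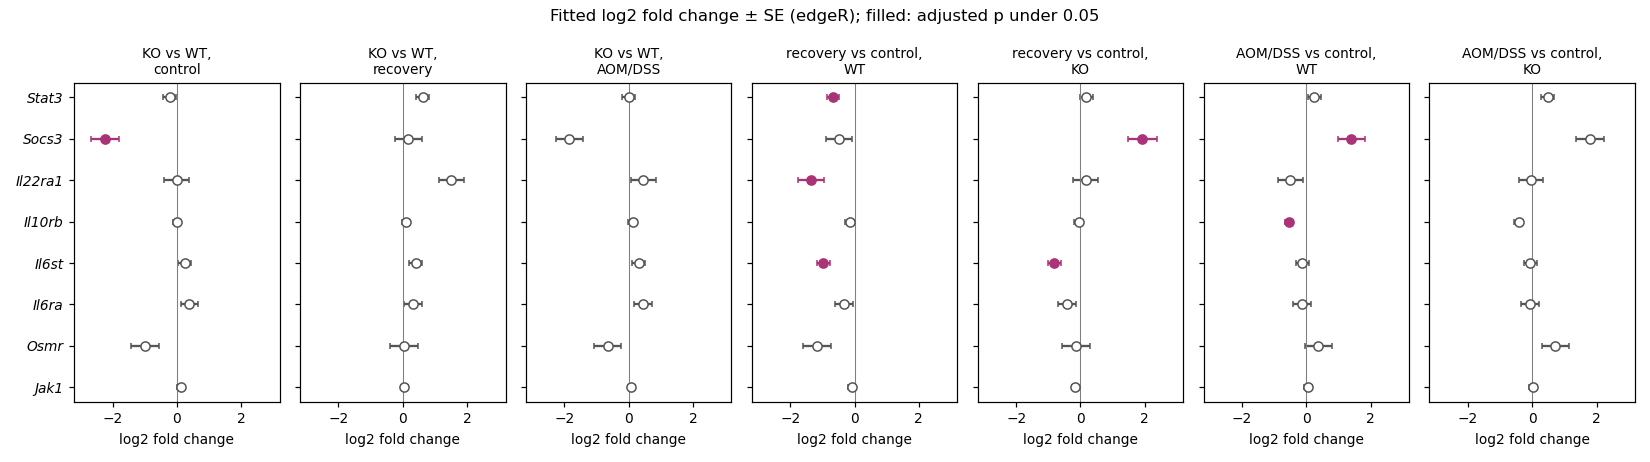
Log2 fold change (x axis) of the 8 genes in the 7 comparisons of 3 against 3 libraries, as fitted by edgeR; whiskers are the SE of the fit and filled points have an adjusted p under 0.05. The 8 filled points are *Socs3* in 3 panels, *Il6st* in both recovery panels, *Stat3* and *Il22ra1* in WT recovery and *Il10rb* in WT AOM/DSS.

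The ligands come first in the pathway and were rare in these libraries. *Il6* was found in 16 of 18 libraries with a median of 0.108 CPM, and *Osm*, the gene of oncostatin M, in 17 with the same median. *Il22* had no read in 10 of 18 libraries, among them all 3 of WT recovery. A count of 0 there allows up to 0.0973 to 0.215 CPM, depending on the library, and covers counting error only. *Il6*, *Il22* and *Osm* did not pass the filter and were not tested. *Il11* and *Lif*, whose products also act through gp130, had medians of 0.522 and 4.73 CPM and were tested.

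A single library had the highest level of each of these 5 ligand genes. WT AOM/DSS replicate 3 held 52 reads of *Il6* (2.46 CPM), 99 of *Osm* (4.68 CPM), 16 of *Il22* (0.757 CPM) and 159 of *Il11* (7.52 CPM). In the other 17 libraries these genes stayed at or below 0.394, 0.380, 0.0928 and 1.18 CPM. *Lif* stood at 23.0 CPM in that library and at or below 7.09 CPM elsewhere. The same library had the highest levels of 3 neutrophil genes, at 10.5 CPM of *Csf3r*, 3.45 of *Cxcr2* and 10.4 of *Retnlg*, against at most 2.75, 0.458 and 1.72 CPM in the others. *Csf3r*, *Cxcr2* and *Retnlg* are 3 of 7 neutrophil markers listed. The summed level of all 7, most of it *Ly6g*, was 216 to 281 CPM in WT AOM/DSS and 0.917 to 518 CPM in WT controls. The part of neutrophils in the ligand reads was not tested.

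*Il11* rose in WT AOM/DSS, from 0.197, 0.131 and 0.219 CPM in controls to 0.339, 0.744 and 7.52 CPM, by 3.91 on the log2 scale (SE 0.924, adjusted p = 0.0226). The groups did not overlap. Without WT AOM/DSS replicate 3 the log2 fold change was 1.53 with an adjusted p of 0.154. Of the 13 ligand genes listed, 4 were tested, and *Il11* in WT AOM/DSS was the only call among them in the 9 contrasts.

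*Il22ra1* (ENSMUSG00000037157, GRCm38 chr4:135728172-135752140, plus strand, protein coding) encodes the chain that gives a cell its response to interleukin-22. It stood at 50.6, 45.2 and 33.3 CPM in WT controls and at 22.5, 7.82 and 20.2 CPM in WT recovery. In *Cldn2*KO it stood at 39.6, 59.3 and 29.5 CPM in controls and at 56.8, 42.9 and 44.7 CPM in recovery. The 3 WT recovery libraries were thus the lowest of these 12, and no library of another group among them came below 29.5 CPM.

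The fall of *Il22ra1* in WT recovery was 1.35 on the log2 scale (log2 fold change -1.35, SE 0.395, edgeR adjusted p = 0.0247). Without WT recovery replicate 2, the lowest library, it was -1.02 with an adjusted p of 0.0809, and without WT control replicate 1 it was -1.21 with 0.0858. In *Cldn2*KO recovery the log2 fold change was 0.17 (SE 0.386, adjusted p = 0.808). Between the genotypes in recovery *Il22ra1* was 1.51 higher in *Cldn2*KO on the log2 scale (SE 0.396), and the groups did not overlap, as for 23.9% of all genes, but edgeR's adjusted p was 0.0659. DESeq2 gave 1.5 with an adjusted p of 0.00791. The interaction was 1.52 (SE 0.551, adjusted p = 0.17), so a difference between genotypes in the response to recovery was not shown.

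The call in WT recovery was lost with *Xist* (log2 fold change -1.20, SE 0.455, adjusted p = 0.0901) or *Hoxb13* (-1.42, SE 0.524, adjusted p = 0.0985) as a covariate, where the fold stayed about as large and its SE was larger. Side by side, WT control replicate 2, without *Hoxb13* like the recovery libraries, stood at 45.2 CPM, above all 3 WT recovery libraries. In recovery replicate 1 of each genotype, both with *Xist* near 1 CPM or below, *Il22ra1* was at 22.5 CPM in WT and 56.8 CPM in *Cldn2*KO. In the 4 recovery libraries with high *Xist* it was at 7.82 and 20.2 CPM in WT and at 42.9 and 44.7 CPM in *Cldn2*KO. With so few libraries on each side, these values do not separate colon position or sex from recovery and genotype. After AOM/DSS *Il22ra1* was at 14.9, 41.5 and 34.9 CPM in WT and at 35.8, 36.2 and 52.7 CPM in *Cldn2*KO. These groups overlapped each other and both control groups.

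*Il10rb* (ENSMUSG00000022969, chr16:91406164-91425834, plus strand, protein coding) encodes the chain shared by the interleukin-22 and interleukin-10 receptors. It was steady in controls and recovery, at 54.8 to 77.4 CPM in those 12 libraries. After AOM/DSS it was lower, at 41.6, 47.5 and 44.0 CPM in WT and at 54.1, 42.3 and 49.1 CPM in *Cldn2*KO, so that all 6 AOM/DSS libraries lay below all 12 others. In WT it fell by 0.54 on the log2 scale (SE 0.135, edgeR adjusted p = 0.0269). In *Cldn2*KO the log2 fold change was -0.42 (SE 0.135, adjusted p = 0.171), and the interaction of 0.12 (SE 0.19) had an adjusted p of 0.892. WT control replicate 2 had the highest value of all libraries, and without it the WT log2 fold change was -0.41 with an adjusted p of 0.11. The call was also lost without WT AOM/DSS replicate 1 (adjusted p = 0.0594) or replicate 3 (0.0995). Epithelial markers summed to 10780 to 18120 CPM in the AOM/DSS libraries and to 21200 CPM or more in all others. The sum leans on single genes: *Car1* was at 102 to 1078 CPM after AOM/DSS and at 8171 to 43582 CPM in recovery. *Epcam* was alike, at 1821 to 2304 CPM after AOM/DSS and 1815 to 2434 CPM in the others. The part of epithelial content in the *Il10rb* values was not tested.

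*Il6st* (ENSMUSG00000021756, chr13:112464070-112510086, plus strand, protein coding) encodes gp130, the chain common to interleukin-6, interleukin-11, oncostatin M and leukaemia inhibitory factor. It stood at 67.6, 57.5 and 53.3 CPM in WT controls and at 38.1, 24.7 and 28.4 CPM in WT recovery. In *Cldn2*KO it stood at 71.2, 71.7 and 68.7 CPM in controls and at 42.2, 40.8 and 37.6 CPM in recovery. All 6 recovery libraries lay below all 6 controls. The log2 fold change was -0.97 in WT (SE 0.206, edgeR adjusted p = 0.00506) and -0.81 in *Cldn2*KO (SE 0.205, adjusted p = 0.0124). The interaction was 0.16 (SE 0.289, adjusted p = 0.82).

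The fall of *Il6st* in recovery was called in 12 of 13 alternatives in WT and 11 of 13 in *Cldn2*KO. Leaving out any 1 library kept both calls, with adjusted p-values of 0.00466 to 0.0274 in WT and 0.0299 to 0.0405 in *Cldn2*KO. With *Hoxb13* as a covariate the log2 fold changes were -0.92 in WT (SE 0.281, adjusted p = 0.0546) and -0.74 in *Cldn2*KO (SE 0.369, adjusted p = 0.42), and with *Xist* the second was -0.80 (SE 0.247, adjusted p = 0.0516). In the fit with *Hoxb13* the shift from control to recovery rests on WT control replicate 2, the only control without *Hoxb13*, and it held 57.5 CPM of *Il6st*. Smooth muscle, fibroblast and macrophage markers were also lower in recovery than in controls. The 10 smooth muscle genes summed to 4198 to 11350 CPM in the 6 controls and 893.5 to 2455 CPM in recovery, and the 8 fibroblast genes to 423 to 730 CPM and 133 to 247 CPM. The 8 macrophage genes summed to 103.8 to 376 CPM in controls and 26.8 to 70.6 CPM in recovery. Their part in the difference was not tested. After AOM/DSS *Il6st* was at 39.5, 62.0 and 62.5 CPM in WT and at 49.6, 79.3 and 74.1 CPM in *Cldn2*KO, which overlapped the controls, and neither comparison was called. Smooth muscle markers summed to 624.6 to 3290 CPM in WT AOM/DSS, below the 4198 to 6222 CPM of WT controls. In *Cldn2*KO they summed to 2561 to 6497 CPM after AOM/DSS and 8424 to 11350 CPM in controls.

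*Il6ra* (ENSMUSG00000027947, chr3:89864059-89913196, minus strand, protein coding) encodes the chain that binds interleukin-6 itself. It ranged from 2.44 CPM in WT recovery replicate 2 to 6.61 CPM in *Cldn2*KO control replicate 1. In every group but *Cldn2*KO controls and *Cldn2*KO AOM/DSS the mean was below 5 CPM, at 3.41 ± 0.877 in WT recovery (SD, n = 3) to 4.30 ± 0.438 in WT controls. Its groups overlapped from each to the next in the order of means. *Cldn2*KO controls, at 5.06 to 6.61 CPM, lay above WT controls (3.80 to 4.56 CPM) and above *Cldn2*KO recovery (2.95 to 4.96 CPM) without overlap, with adjusted p-values of 0.608 and 0.324. All its log2 fold changes lay between -0.42 and 0.46, with an SE of 0.274 to 0.279 in the 7 comparisons, and none was called.

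*Osmr* (ENSMUSG00000022146, chr15:6813577-6874969, minus strand, protein coding) encodes the chain specific to oncostatin M. It stood at 13.8, 7.66 and 14.4 CPM in WT controls and at 6.46, 5.49 and 6.03 CPM in *Cldn2*KO controls. In recovery it stood at 4.76, 5.38 and 5.74 CPM in WT and at 5.09, 6.77 and 4.48 CPM in *Cldn2*KO. WT controls thus lay above all 9 of these libraries, with WT control replicate 2 lowest among them. Against WT controls the log2 fold change was -1.18 in WT recovery (SE 0.435, edgeR adjusted p = 0.0625), and it was -1.0 in *Cldn2*KO controls (SE 0.432, adjusted p = 0.33). Without WT control replicate 2 the first became -1.44 with an adjusted p of 0.0298. It was called in 3 of 13 alternatives, over which it ran from -1.44 to -0.53 with adjusted p-values of 0.0298 to 0.589. After AOM/DSS *Osmr* was at 6.39, 9.98 and 30.3 CPM in WT and at 8.22, 8.37 and 13 CPM in *Cldn2*KO. The value of 30.3 CPM was again that of WT AOM/DSS replicate 3, and without it the log2 fold change between AOM/DSS and control in WT turned from 0.38 to -0.55, neither of them called.

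**Figure D3:**
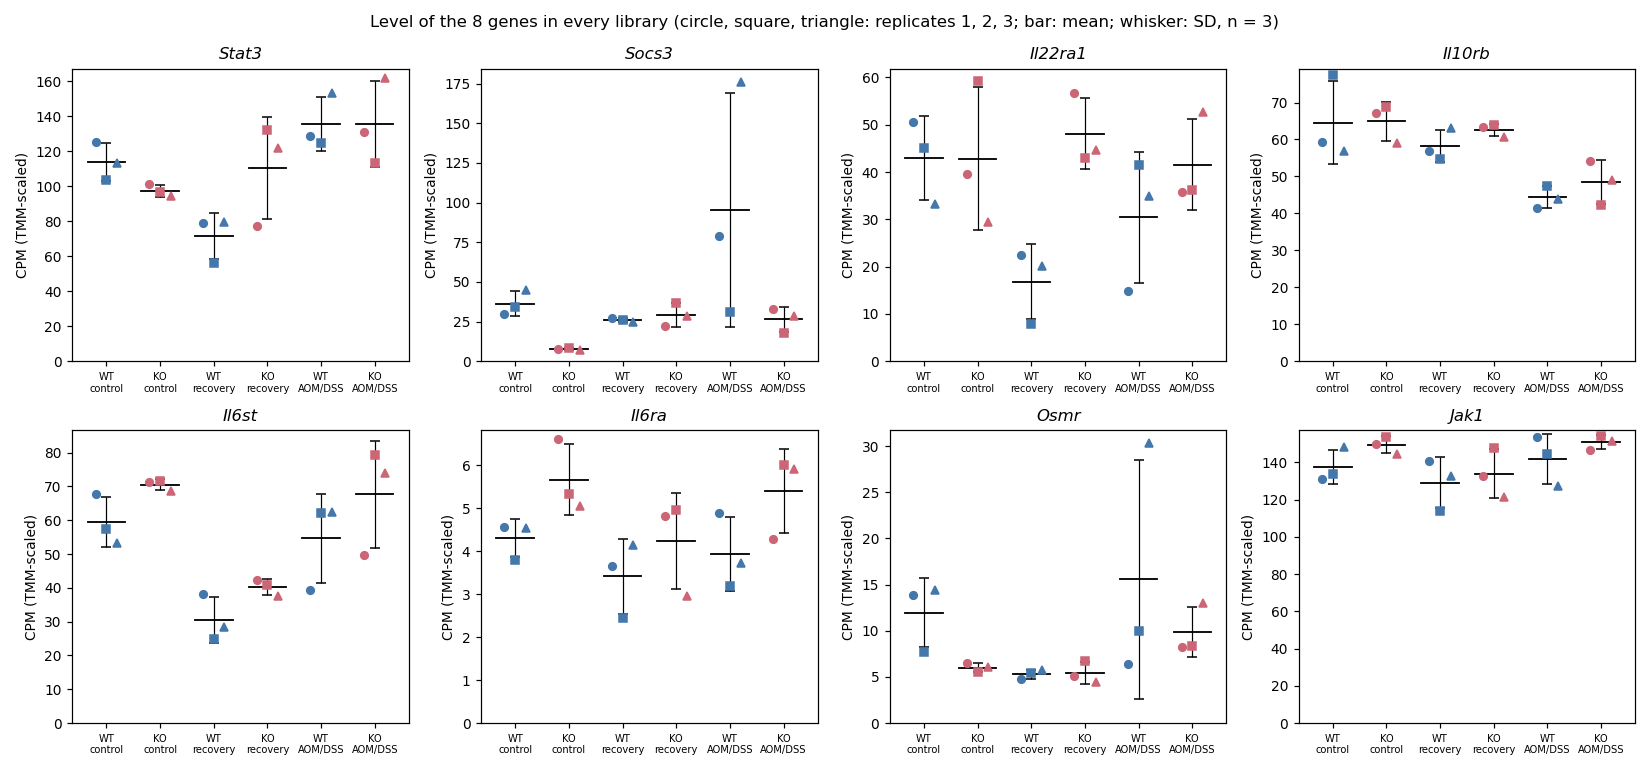
CPM (TMM-scaled, linear axis from 0) of each of the 8 genes in all 18 libraries; circles, squares and triangles are replicates 1, 2 and 3 of a group, blue is WT and red Cldn2KO, the bar is the group mean and the whisker the SD. *Socs3* in Cldn2KO controls (7.37 to 8.21 CPM) lies below all other groups, *Il6st* is lower in both recovery groups, and *Jak1* stays within 114 to 154 CPM.

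*Jak1* (ENSMUSG00000028530, chr4:101152367-101265282, minus strand, protein coding) encodes the kinase that the receptors of both cytokine families use. It was the steadiest of the 8 genes. The lowest library, WT recovery replicate 2, held 114 CPM and the highest, *Cldn2*KO AOM/DSS replicate 2, 154 CPM, a ratio of 1.35. Its log2 fold changes lay between -0.16 and 0.12, with an SE of 0.12 in each of the 7 comparisons, and adjusted p-values were 0.392 or more.

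*Stat3* (ENSMUSG00000004040, chr11:100885098-100939540, minus strand, protein coding) encodes the transcription factor on which these receptors converge. Its exons share 72 bases with *Stat5a* on the other strand, a small part of its 9527 bases. *Stat3* stood at 125, 103 and 114 CPM in WT controls and at 79.1, 56.5 and 79.5 CPM in WT recovery. The WT recovery libraries lay below all controls. *Stat3* fell by 0.67 on the log2 scale (SE 0.196, edgeR adjusted p = 0.0241), and leaving out WT recovery replicate 2 gave -0.54 with an adjusted p of 0.0944. Without WT control replicate 1 or replicate 3 the adjusted p was 0.0923 or 0.056. With *Hoxb13* as a covariate the log2 fold change was -0.53 (SE 0.267, edgeR adjusted p = 0.221). When only the groups compared were fitted the adjusted p was 0.0664.

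In *Cldn2*KO *Stat3* stood at 101, 96.8 and 94.4 CPM in controls and at 77.1, 132 and 122 CPM in recovery. Replicate 1 lay within the range of the WT recovery libraries, and replicates 2 and 3 lay above every *Cldn2*KO control. The log2 fold change from control to recovery was 0.18 (SE 0.195, adjusted p = 0.568). Between the genotypes in recovery it was 0.62 (SE 0.195, adjusted p = 0.0946 in edgeR and 0.0476 in DESeq2), and without *Cldn2*KO recovery replicate 1 it was 0.83 with edgeR's adjusted p at 0.0266. That replicate is the one of its group without *Xist*. The WT recovery library without *Xist* stood at 79.1 CPM, close to the 77.1 CPM of that replicate. The recovery libraries with *Xist* stood at 56.5 and 79.5 CPM in WT and at 132 and 122 CPM in *Cldn2*KO. With so few libraries on each side, these values do not separate sex from genotype. With *Xist* as a covariate the difference stayed uncalled. The interaction was 0.85 (SE 0.276, adjusted p = 0.135), and without that replicate it was 1.05 with an adjusted p of 0.04.

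After AOM/DSS *Stat3* was at 129, 125 and 154 CPM in WT and at 131, 113 and 162 CPM in *Cldn2*KO. The means, 135.8 ± 15.6 and 135.6 ± 24.7 CPM (SD, n = 3 each), were the highest of the 6 groups. The log2 fold change between the genotypes was 0.00 with an SE of 0.194. Against controls it was 0.25 in WT (SE 0.194, adjusted p = 0.411) and 0.48 in *Cldn2*KO (SE 0.195, adjusted p = 0.263), where the groups did not overlap, as for 29.1% of all genes.

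*Socs3* (ENSMUSG00000053113, chr11:117966079-117970047, minus strand, protein coding) encodes the inhibitor that Stat3 itself induces. Stat3 is known to bind the pattern TTCNNNGAA, which reads the same on both strands. The 250 bases before the RefSeq start of each gene (GRCm38.p6) were searched for it. It was in 7.02% of 32851 promoters, in 1 of the 7 promoters on file for the 8 genes, that of *Socs3*, and in 2 of 64 for the other pathway genes, those of *Reg3b* and *Il19*. The windows of *Socs3* and *Reg3b* are shown because both genes were called below. The pattern is in capitals, the *Socs3* window is chr11:117969502-117969530 on the minus strand with its pattern 154 to 146 bases before the start, and the *Reg3b* window is chr6:78370746-78370774 on the plus strand with its pattern 129 to 121 bases before it. Neither window overlaps an exon in GENCODE M21. A match describes letters and does not show binding.
Socs3: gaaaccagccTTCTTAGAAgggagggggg
Reg3b: agcctgttctTTCTTGGAAactctttgag

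*Socs3* stood at 29.6, 34.4 and 44.7 CPM in WT controls and at 7.49, 8.21 and 7.37 CPM in *Cldn2*KO controls. The *Cldn2*KO controls were the lowest of all 18 libraries and lay close together. *Socs3* was lower by 2.24 on the log2 scale in *Cldn2*KO controls (log2 fold change -2.24, SE 0.441, edgeR adjusted p = 0.023). The log2 fold change lay between -2.36 and -2.06 in every alternative, and the adjusted p rose to 0.055 to 0.138 when any 1 of the 3 *Cldn2*KO controls was left out. Without WT control replicate 2, which lacks *Hoxb13*, the call was kept, and with no filter the adjusted p was 0.0509. B and plasma cell markers also differed between these groups, summing to 737 to 898 CPM in WT controls and 13.9 to 165 CPM in *Cldn2*KO controls, and T and NK cell markers to 10.5 to 138 CPM and 1.39 to 8.50 CPM. The 10 smooth muscle markers lay the other way, summing to 4198 to 6222 CPM in WT controls and 8424 to 11350 CPM in *Cldn2*KO controls, with 10 of 10 genes apart and 0 called by edgeR (1 at an unadjusted p under 0.05). Their part in the *Socs3* difference was not tested.

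In recovery the genotypes overlapped in *Socs3*, at 27.1, 25.9 and 24.8 CPM in WT and at 22.2, 36.9 and 28.7 CPM in *Cldn2*KO, with a log2 difference of 0.17 (SE 0.418). Against controls the log2 fold changes of the genotypes had opposite signs. *Socs3* rose in *Cldn2*KO recovery by 1.93 on the log2 scale (SE 0.438, edgeR adjusted p = 0.00708), and all 3 libraries lay above the controls. T and NK cell markers rose as a sum in the same comparison, from 1.39 to 8.50 CPM in controls to 23.1 to 37.8 CPM in recovery. Of that recovery sum *Gzma* held 7.53 to 14.8 CPM. Of the 9 markers 5 were called higher, while *Cd2* (0.246 to 1.02 and 0.161 to 0.295 CPM) and *Cd4* (0.277 to 0.969 and 0.148 to 0.375 CPM) were not higher. Of the smooth muscle markers 10 of 10 were called lower, where 19.4% of all genes were called in either direction. The part of these markers in the rise of *Socs3* was not tested. In WT recovery the log2 fold change was -0.48 (SE 0.418, adjusted p = 0.437), and all 3 libraries lay below the controls, which is the case in either direction for 37.7% of all genes. The interaction was 2.41 (SE 0.603) with an adjusted p of 0.082 in edgeR, 0.00697 in DESeq2 and 0.0229 when only these 4 groups were fitted. *Cldn2*KO recovery replicate 1, without *Xist* like the controls, stood at 22.2 CPM, also above all 3 *Cldn2*KO controls, but as 1 library it does not separate sex from recovery. With *Hoxb13* as a covariate the log2 fold change was 2.04 but its SE rose to 0.807 (adjusted p = 0.284), where no *Cldn2*KO control matches the recovery libraries.

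After AOM/DSS *Socs3* was at 78.9, 31.2 and 176 CPM in WT and at 33.2, 17.9 and 28.6 CPM in *Cldn2*KO. The WT libraries spread wider than all 15 others together, which ran from 7.37 to 44.7 CPM. The rise over WT controls, 1.40 on the log2 scale (SE 0.422, edgeR adjusted p = 0.0473), became 0.61 with an adjusted p of 0.3 without WT AOM/DSS replicate 3. The adjusted p was 0.0573 to 0.147 without WT AOM/DSS replicate 1 or any 1 WT control. In *Cldn2*KO the log2 fold change over controls was 1.79 (SE 0.436, adjusted p = 0.11), with all 3 libraries above the controls. DESeq2 called this difference (adjusted p = 0.00453), and so did edgeR without *Cldn2*KO AOM/DSS replicate 2 (0.0492). Between the genotypes after AOM/DSS the log2 fold change was -1.85 (SE 0.427, adjusted p = 0.862), with overlap of WT replicate 2 and *Cldn2*KO replicate 1, and it was -2.27 with an adjusted p of 0.0294 without WT AOM/DSS replicate 2 and -1.05 with 0.983 without replicate 3. The interaction was 0.39 (SE 0.593, adjusted p = 0.883).

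Over the 18 libraries, the genes whose centred log2 CPM stayed closest to *Stat3* were *Ppp2r1b*, *Smarca4* and *Hcfc1*, with root mean square differences of 0.132, 0.15 and 0.154 where *Stat3* itself spread by 0.376. Closest to *Il22ra1* were *Gse1*, *Dyrk2* and *Akap13*, at 0.315, 0.317 and 0.346 against its own 0.719. Closest to *Socs3* were *Trim15*, *Zc3h12a* and *Plekhs1*, at 0.567, 0.628 and 0.635 against 1.08, so that no gene followed *Socs3* closely. These are descriptions over 13185 genes in libraries that share groups and depth.

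The other genes of the pathway were taken from a list of 65, of which 55 were tested. In controls, 2 of 55 were called between the genotypes, both lower in *Cldn2*KO, where 1.17% of all genes were called. They were *Duox2* (-2.20 on the log2 scale, SE 0.432, edgeR adjusted p = 0.0223) and *Duoxa2* (-2.92, SE 0.598, adjusted p = 0.0292), which encode the epithelial oxidase DUOX2 and its maturation factor. *Duox2* stood at 442, 339 and 374 CPM in WT controls and at 78.8, 106 and 67.4 CPM in *Cldn2*KO controls, and *Duoxa2* at 97.2, 83.3 and 90.1 CPM and at 8.77, 14.4 and 12.6 CPM. The groups did not overlap. With any 1 *Cldn2*KO control left out neither was called, with adjusted p-values of up to 0.139 for *Duox2* and 0.175 for *Duoxa2*. *Fut2* (a fucosyltransferase of the mucosa) and *Pim1* (a survival kinase) did not overlap between the genotypes either, at 171 to 256 against 127 to 132 CPM and at 9.55 to 14.8 against 4.29 to 4.79 CPM, but their adjusted p-values were 0.103 and 0.131.

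In WT recovery, 1 of 55 rose and 12 fell, a share close to the 22.2% of all genes called there. The one that rose was *Socs2*, another inhibitor of cytokine receptors, from 18.2, 43.7 and 19.2 CPM to 59.3, 86.2 and 76.0 CPM (log2 fold change 1.45, SE 0.351, edgeR adjusted p = 0.00993). Of the 27 listed Stat3 targets 10 fell. The genes that fell with the largest log2 fold changes were *Muc1* (a membrane mucin, -3.49), *Duox2* (-2.12), *Duoxa2* (-2.07), *Fos* (an early response factor, -2.01) and *Il10ra* (the private chain of the interleukin-10 receptor, -1.77). *Bcl3*, a regulator of NF-kB, fell by 1.19 (SE 0.338, adjusted p = 0.0216), from 36.5, 30.4 and 38.7 CPM to 18.7, 13.1 and 14.5 CPM. Of the 13 calls, 1 was kept with *Hoxb13* as a covariate, where *Muc1* turned to 2.32 (adjusted p = 0.269) and *Saa1*, also among the 12, from -1.59 to 0.19 (adjusted p = 0.818). *Muc1* in WT control replicate 2 was 0.262 CPM. Replicates 1 and 3 of that group held 25.2 and 19.5 CPM and WT recovery 0.651 to 2.22 CPM, so it was low in every WT library that lacked *Hoxb13*.

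In *Cldn2*KO recovery, 11 of 55 rose and 7 fell, where 19.4% of all genes were called. Of the 27 listed Stat3 targets, all of them tested, 10 rose and 4 fell. Leaving out 1 library gave between 5 and 16 calls in place of 18, with 5 without *Cldn2*KO control replicate 3, 7 without control replicate 1 or recovery replicate 2 and 9 without control replicate 2. *Reg3b* was called in 6 of 13 alternatives and *Reg3g* in 5 of 13. *Reg3b* stood at 2.76, 2.39 and 0.861 CPM in *Cldn2*KO controls and at 2771, 4660.2 and 821 CPM in *Cldn2*KO recovery (10.42 on the log2 scale, SE 3.09, edgeR adjusted p = 0.029). *Reg3g* stood at 1.33, 0.721 and 0.431 CPM and at 285, 445 and 155 CPM (8.45, SE 2.60, adjusted p = 0.0342). The others with the largest log2 fold changes were *S100a9* (7.02) and *S100a8* (6.86), the subunits of calprotectin, and *Saa3* (5.41), an acute phase protein. *Pim1* rose by 1.56 (SE 0.449, adjusted p = 0.0236) and *Fut2* by 0.78 (SE 0.192, adjusted p = 0.0107). The largest among those that fell were *Muc1* (-3.26), *Saa1* (-1.96), *Hif1a* (-1.63), *Il10ra* (-1.59) and *Mcl1* (-1.31). With *Hoxb13* as a covariate none of the 18 calls was kept, *Muc1* turned to 3.12 (adjusted p = 0.37) and *Saa1* to 0.26 (adjusted p = 0.903), and with *Xist* as a covariate 7 of 55 genes were called.

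The lectins were higher still in WT recovery, with *Reg3b* at 14506, 11954 and 18606 CPM, yet the comparison with WT controls was not called (adjusted p = 0.169). WT control replicate 2 already held 1721 CPM of *Reg3b* and 648 CPM of *Reg3g*. In WT control replicates 1 and 3 they stood at 0.315 and 3.40 CPM and at 1.14 and 6.58 CPM. Between the genotypes in recovery both lectin genes lay apart, lower in *Cldn2*KO, and neither was called. *Reg3b* and *Reg3g* were thus at 155 CPM or more in every library that lacked *Hoxb13* and in WT AOM/DSS replicate 3 (605 and 553 CPM), and at 11.1 CPM or less in the other 10. Reads could be split between these related genes, since the handling of reads with several alignments was not given in the sources used here.

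**Figure D4:**
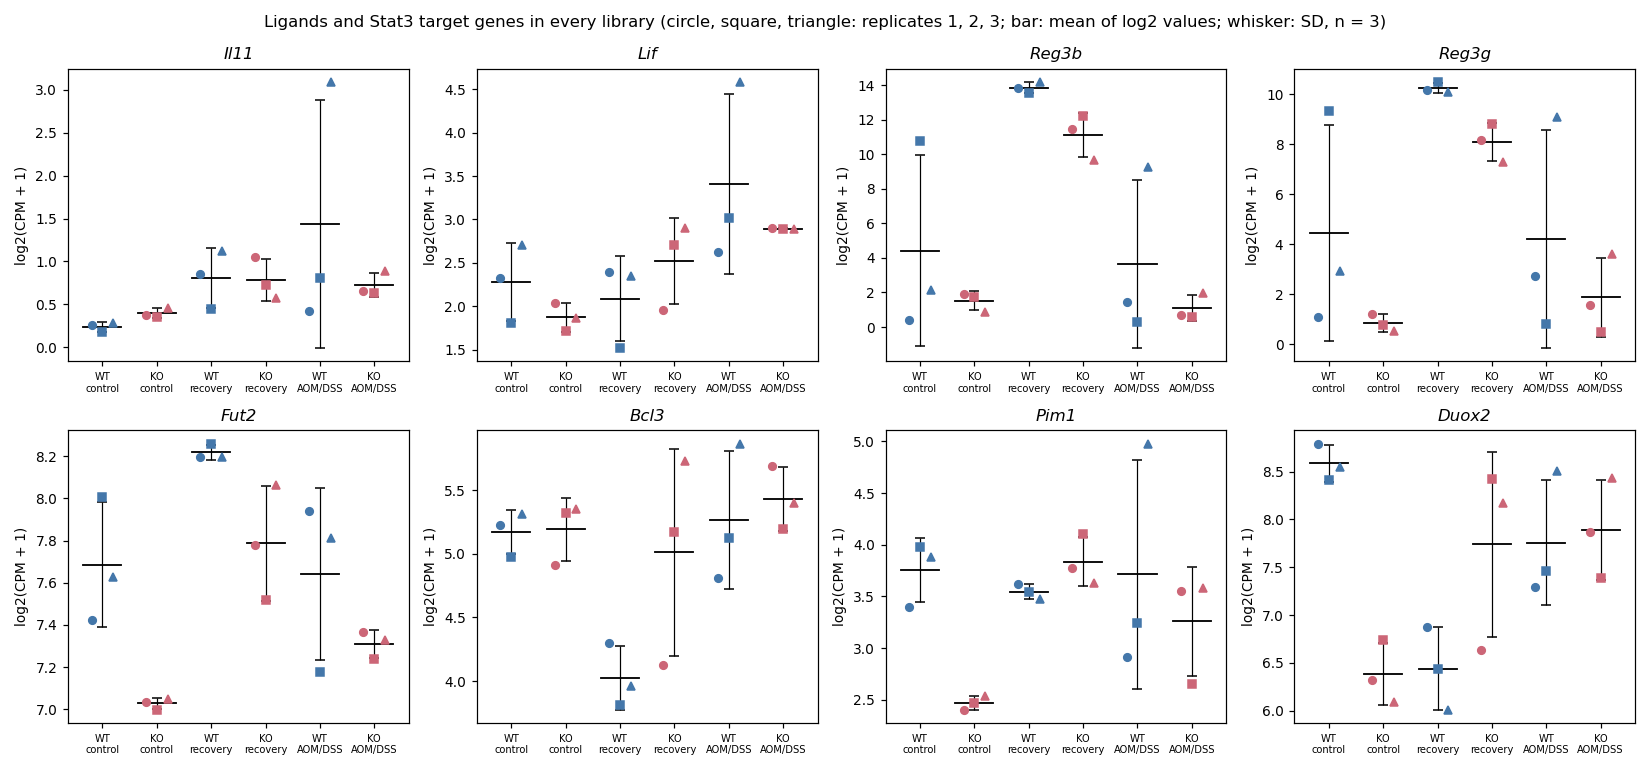
log2(CPM + 1) of the ligand genes *Il11* and *Lif* and of 6 listed Stat3 target genes in all 18 libraries; circles, squares and triangles are replicates 1, 2 and 3, blue is WT and red Cldn2KO, the bar is the mean of the log2 values and the whisker the SD. *Reg3b* and *Reg3g* are high in all 6 recovery libraries, in WT control replicate 2 and in WT AOM/DSS replicate 3, and *Duox2* is lower in Cldn2KO controls and WT recovery than in WT controls.

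*Bcl3*, at 16.5, 35.0 and 52.1 CPM in *Cldn2*KO recovery, had a log2 fold change of 1.16 over WT recovery (SE 0.338, edgeR adjusted p = 0.0801). The interaction of genotype and recovery called 1 of 55, where 0.13% of all genes were called. It was *Duox2* (3.65, SE 0.603, edgeR adjusted p = 0.0361), called in 7 of 19 alternatives with an adjusted p of up to 0.148. *Duox2* fell from 442, 339 and 374 to 116, 85.7 and 63.5 CPM in WT and rose from 78.8, 106 and 67.4 to 98.1, 342 and 286 CPM in *Cldn2*KO.

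After AOM/DSS, 6 of 55 rose and 1 fell in WT (10.4% of all genes called), and 1 fell in *Cldn2*KO (0.195%). These counts depended on the fit: with only the groups compared they were 0 in WT and 9 higher and 2 lower in *Cldn2*KO, and with DESeq2 they were 10 higher and 1 lower in WT and 7 higher and 1 lower in *Cldn2*KO. A difference between the genotypes in these counts was thus not shown. The one that fell in both was *Mcl1*, which encodes a protein that blocks apoptosis, by 0.64 in WT (SE 0.169, edgeR adjusted p = 0.0318) and 1.03 in *Cldn2*KO (SE 0.17, adjusted p = 0.0367). The genes that rose in WT were *Il11*, the calprotectin genes *S100a9* (8.61) and *S100a8* (6.65), *Lcn2* (4.55, lipocalin-2), *Timp1* (2.56, a protease inhibitor) and *Myc* (1.57). *S100a8* stood at 1.31, 4.38 and 174 CPM and *Lcn2* at 0.968, 16.8 and 126 CPM in these libraries. Of the 6, only *S100a9* was still called without replicate 3 (5.21, adjusted p = 0.0377), and without WT control replicate 2 none was. *Myc* was spread more evenly, at 26.4, 30.6 and 41.0 CPM against 9.56 to 13.1 CPM in WT controls. Between the genotypes after AOM/DSS, and for the interaction, edgeR called 0 of 55 (0.0059% and 0.0118% of all genes). An unadjusted p under 0.05 was reached by 9 and 5 of 55 (5.6% and 8.44% of all genes). DESeq2 called 0 of 64 and 2 of 59 with an adjusted p (0.00985% and 0.435% of all genes).

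The 8 called differences of the axis were refitted under every alternative. *Il6st* in WT recovery and *Socs3* in *Cldn2*KO recovery were each called in 12 of 13, and *Socs3* in WT AOM/DSS in 4 of 13. All 8 kept their direction in all of them.

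**Figure D5:**
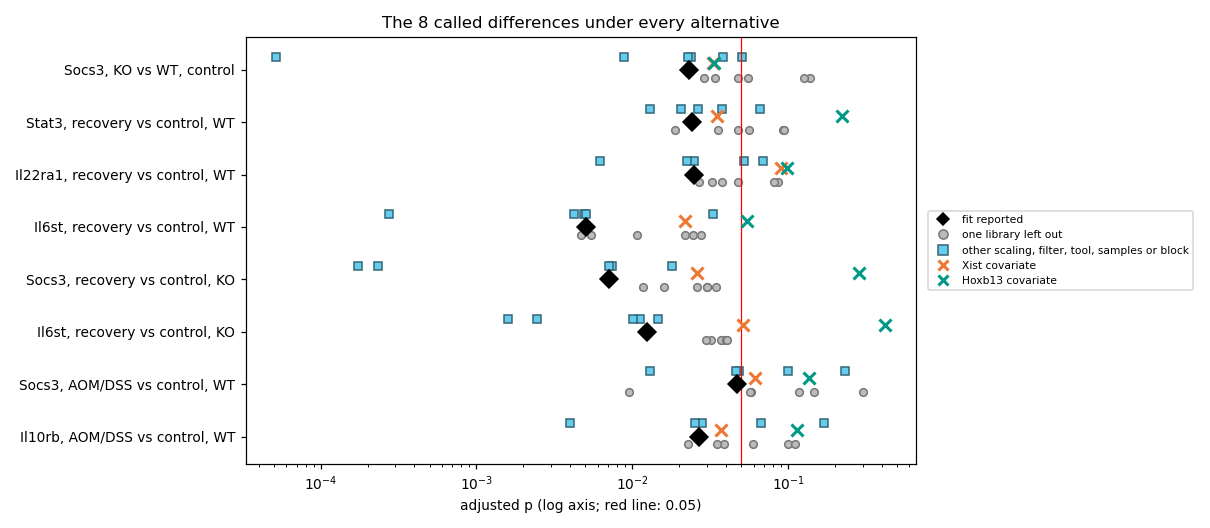
Adjusted p (log axis, red line at 0.05) of the 8 called differences in the fit reported (black diamond), with 1 library left out (grey circles), with another scaling, filter, tool, set of samples or block (blue squares), and with *Xist* (orange cross) or *Hoxb13* (green cross) as a covariate. Apart from *Socs3* in controls, every green cross lies to the right of the line, from 0.0546 for *Il6st* in WT recovery to 0.42 for *Il6st* in Cldn2KO recovery.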

How the data were processed

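The deposited table holds raw counts per gene for 36 columns, 18 libraries on 2 lanes each, made by the authors with featureCounts (Subread) on GRCm38. The study's methods name TopHat2 as aligner and the submitters' processing notes name HISAT2. Versions, annotation release, strandedness and multimapping were not given in the sources used here. Lanes were summed. Symbols came from GENCODE M21, in which all 8 genes had the table's start and end. No library was a copy of another of its group. Genes were filtered with filterByExpr (16937 kept, 30792 dropped), scaled with TMM and tested with edgeR 4.0.16 (R 4.3.3, quasi-likelihood, robust) in 1 fit of all 18 libraries with a mean per group and Benjamini-Hochberg adjustment over all genes tested. DESeq2 1.42.0 was an alternative, as were other scaling, filters, samples, covariates (*Xist* above 100 CPM, *Hoxb13* above 10 CPM), leaving out each library, and a replicate block. SE is that of the fit. Scripts were tested on simulated counts. Counting limits take 3 reads for a count of 0.

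The 8 genes, the pathway list and the marker lists were chosen with earlier results of these data known. Named pathway genes were *Il6*, *Il11*, *Il22*, *Osm*, *Lif*, *Reg3b*, *Reg3g*, *Fut2*, *Bcl3* and *Pim1*, plus up to 5 higher and 5 lower called genes per comparison with the largest log2 fold change. Likeness used the 3 genes nearest in centred log2 CPM. Other genes were named after their values were seen. Sequences are from RefSeq (GRCm38.p6), which had a promoter for 7 of the 8 genes. A result on a listed pathway gene is not reported here.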

Additional observations from a re-analysis of the deposited data

Results flagged for a closer look

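*Duox2*, a listed target of the axis, differed between the genotypes in its response to recovery by the interaction test (log2 difference of the responses 3.65, edgeR adjusted p = 0.0361). It was called in 7 of 19 alternatives, with adjusted p-values of 2.3e-06 to 0.148 and the same sign in all of them. Without WT control replicate 2 it was 3.74 with an adjusted p of 0.0459. The call was lost with *Xist* as a covariate, with no filter and when only the groups compared were fitted. It was also lost without any 1 *Cldn2*KO control or WT recovery library, without WT control replicate 1, and without *Cldn2*KO recovery replicate 2 or 3. *Cldn2*KO recovery replicate 1, at 98.1 CPM, lay within the range of the *Cldn2*KO controls. None of the 8 genes of the axis passed the interaction test.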

How the results depend on the processing

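Counts of called genes among the 8 moved as follows. Between genotypes in controls the 1 call became 0 with no filter and 0 to 1 when 1 library was left out. In recovery the 0 calls became 2 with DESeq2 and 0 to 1 without 1 library, and after AOM/DSS 0 to 1 without 1 library. For WT recovery the 3 calls became 4 with DESeq2, 2 with no filter, with *Xist* or when only the groups compared were fitted, 0 with *Hoxb13* as a covariate and 1 to 4 without 1 library. For *Cldn2*KO recovery the 2 calls became 1 with *Xist* and 0 with *Hoxb13* as a covariate. For WT AOM/DSS the 2 calls became 0 with no filter, 0 when only the groups compared were fitted, 1 with *Xist*, 0 with *Hoxb13* and 0 to 2 without 1 library. For *Cldn2*KO AOM/DSS, and for the interaction with recovery, the 0 calls became 1 with DESeq2, 1 when only the groups compared were fitted and 0 to 1 without 1 library. The causes were not tested. With *Hoxb13* as a covariate, recovery is set against WT control replicate 2 alone among controls. RLE size factors and a filter of 1 CPM moved no count.

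The replicate numbers shared by the control titles did not pair the samples: residuals of same-numbered libraries correlated at 0.157, 0.00234 and 0.0794 over 16937 genes, and not every library correlated best with its own number. With the replicate block, 1 of the 8 genes was called between genotypes in controls, as without it. No paired analysis was possible for the other groups because their titles share no such numbers.

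Of 1040 refitted log2 fold changes of the 8 genes, 937 kept direction and call, 34 lost a call, 13 gained one and 56 changed sign, none of which was called. The sign changes without a library left out were *Stat3* between genotypes after AOM/DSS (0.00098 with no filter, 0.0032 with the groups compared), *Il22ra1* between genotypes in controls (0.0078 with a filter of 1 CPM, 0.028 with *Hoxb13*) and in *Cldn2*KO AOM/DSS (0.15 with *Xist*), *Il10rb* in the interactions (-0.056 for recovery and -0.033 for AOM/DSS with *Hoxb13*) and *Osmr* in *Cldn2*KO recovery (0.75 with *Hoxb13*).

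Leaving out 1 library gave these ranges where the sign turned. Between genotypes they were -0.16 to 0.12 for *Stat3* after AOM/DSS, -0.026 to 0.34 for *Socs3*, -0.14 to 0.17 for *Osmr* and -0.051 to 0.12 for *Jak1* in recovery, -0.32 to 0.19 for *Il22ra1* and -0.071 to 0.14 for *Il10rb* in controls, and -1.03 to 0.27 for *Osmr* after AOM/DSS. In *Cldn2*KO recovery *Il22ra1* ran from -0.033 to 0.48. In WT AOM/DSS they were -0.23 to 0.064 for *Il6st*, -0.31 to 0.017 for *Il6ra*, -0.55 to 0.75 for *Osmr* and -0.019 to 0.12 for *Jak1*. In *Cldn2*KO AOM/DSS they were -0.23 to 0.27 for *Il22ra1*, -0.16 to 0.13 for *Il6st* and -0.13 to 0.080 for *Il6ra*. For the interaction with recovery they were -0.050 to 0.18 for *Il10rb*, -0.28 to 0.12 for *Il6ra* and -0.15 to 0.00092 for *Jak1*. For that with AOM/DSS they were -0.022 to 1.17 for *Socs3*, -0.0064 to 0.23 for *Il10rb*, -0.12 to 0.24 for *Il6st*, -0.069 to 0.25 for *Il6ra*, -0.025 to 1.26 for *Osmr* and -0.11 to 0.033 for *Jak1*.

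The same alternatives were run on the other pathway genes, and the ratios of highest to lowest library were taken without 1 library, after the data had been seen. Calls in WT recovery ranged from 1 to 16 around 13, and in *Cldn2*KO recovery the 18 became 10 with no filter, 7 with *Xist*, 0 with *Hoxb13* and 5 to 16 without 1 library. In WT AOM/DSS the 7 became 0 when only the groups compared were fitted, 11 with DESeq2, 1 without WT AOM/DSS replicate 3 and 2 without WT control replicate 2. In *Cldn2*KO AOM/DSS the 1 became 11 when only the groups compared were fitted and 8 with DESeq2, and between genotypes in controls the 2 became 10 with DESeq2, 4 when only the groups compared were fitted, 1 with no filter and 0 to 3 without 1 library. *Il6*, *Il22* and *Osm* had too few reads to pass the filter.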
